A study of Mus musculus with 6 samples.

Results

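The interleukin genes and the genes of their receptors were taken as every gene whose symbol begins with IL and a digit in 6 mouse tissue sections. They numbered 83 of the 19378 genes of the series: 39 ligands, 41 receptor chains and 3 genes that are neither, namely the binding protein Il18bp, the amino acid oxidase gene Il4i1 and its neighbour Il4i1b. The rule for membership reads the symbol alone.

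Interleukins are secreted messengers of immune and tissue cells, and most act through receptors built of 2 or more chains, some of which are shared by several cytokines. Receptors of the IL-6, IL-12, IL-10 and common gamma chain groups signal through JAK kinases and STAT factors, whereas those of the IL-1 and IL-17 groups signal through adaptor proteins to NF-kB. In inflamed joints IL-1, IL-6 and IL-17 are well-known mediators. Acetylation of histone H3 (H3K27ac) marks active promoters and enhancers, H3K4me3 marks promoters, and H3K27me3 is the mark left by Polycomb repression.

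The sections lay on arrays of barcoded DNA spots that capture protein A-Tn5, a transposase bound to antibodies against the histone mark, so that each chromatin fragment carries the position of its spot. H3K27ac was measured in an adult mouse paw with collagen-induced arthritis, labelled 42 days, and in an adult control paw, also labelled 42 days. Both paws had been fixed, decalcified, embedded in paraffin and cut at 4 µm near the talus, a bone of the ankle. H3K4me3 was measured in a section of 20 µm of adult wild-type brain, and H3K27me3, H3K27ac and H3K4me3 in 3 sections of 16 µm of whole wild-type E11.5 embryos. The labels used here give no strain or sex, and do not say whether the 3 embryo sections came from 1 animal. Each combination of tissue, condition and mark had 1 section. No difference below was therefore set against a spread between animals, no test was made, and the 95% intervals cover counting error alone, with reads taken as independent although copies made by PCR are not. In a section, fewer cells of a type and less of the mark per cell cannot be told apart.

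The number of reads per gene and spot was recovered from the tied ranks of the deposited quantile-normalised values. The arthritis paw gave 5344438 reads over 943 spots and the control paw 5981684 reads over 554 spots. The brain gave 2036521 reads over 1200 spots, and the embryo gave 749650 over 254 for H3K27me3, 548923 over 251 for H3K27ac and 403483 over 248 for H3K4me3. All 83 interleukin genes were held by the control paw and the embryo H3K27me3 section, 82 by embryo H3K27ac, 81 by embryo H3K4me3, 47 by the arthritis paw and 43 by the brain, and 33 were held by all 6. Every interleukin gene that a section held had at least 1 read there. The median interleukin gene had 286 reads in the arthritis paw and 125 in the control paw, 113 in the brain and only 8 to 12 in the embryo sections, so embryo values carry wide intervals. Each median covers the genes that its own section held. Over the 47 held by both paws the control median was 181. Lists of tissue markers separated the labelled tissues poorly. The neuron markers had a median percentile of reads of 58.8 for brain, the lowest of the 6 sections. It was 76.6 in the arthritis paw, 65.5 in the control paw and 61.5 to 73.0 in the embryo sections. The glia markers had 81.1 in the brain, above the 61.9 and 78.7 of those paws and the 65.9 to 78.2 of the embryo sections. The embryo markers stood at 78.4 to 87.9 in the embryo sections, at 74.6 in the arthritis paw and at 83.9 in the control paw. The epidermis markers stood at 69.9 in the arthritis paw, 16.7 in the control paw and 58.2 in the brain. The marks, the gene lists and the markers held differ between these sections, so the percentiles do not compare tissues alone. No marker that a section held was without reads, and no cell type is assigned to any value below.

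The promoters of the genes with the largest paw ratios that RefSeq's promoter table holds, with 2 higher and 2 lower in the arthritis paw, are shown to let their base composition be compared. Each runs 5′ to 3′ along the gene's strand over 250 bases before and 50 after the annotated start (build GRCm38.p6), with CpG dinucleotides in capitals. The first is Il12b (chr11:44399813-44400112, plus strand), the second Il1rapl1 (chrX:88115899-88116198, minus strand), the third Il17f (chr1:20784221-20784520, minus strand) and the last Il17d (chr14:57524579-57524878, plus strand).
Il12b: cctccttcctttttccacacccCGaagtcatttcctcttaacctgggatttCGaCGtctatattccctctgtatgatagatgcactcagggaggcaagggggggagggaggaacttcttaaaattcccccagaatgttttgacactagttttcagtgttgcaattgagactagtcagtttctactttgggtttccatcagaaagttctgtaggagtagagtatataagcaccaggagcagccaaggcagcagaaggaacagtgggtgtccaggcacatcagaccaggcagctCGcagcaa
Il1rapl1: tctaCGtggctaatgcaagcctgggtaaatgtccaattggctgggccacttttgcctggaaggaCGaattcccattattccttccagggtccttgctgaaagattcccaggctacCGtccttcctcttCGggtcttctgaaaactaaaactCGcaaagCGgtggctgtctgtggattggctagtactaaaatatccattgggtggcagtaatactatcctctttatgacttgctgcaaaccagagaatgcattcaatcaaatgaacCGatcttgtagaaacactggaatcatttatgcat
Il17f: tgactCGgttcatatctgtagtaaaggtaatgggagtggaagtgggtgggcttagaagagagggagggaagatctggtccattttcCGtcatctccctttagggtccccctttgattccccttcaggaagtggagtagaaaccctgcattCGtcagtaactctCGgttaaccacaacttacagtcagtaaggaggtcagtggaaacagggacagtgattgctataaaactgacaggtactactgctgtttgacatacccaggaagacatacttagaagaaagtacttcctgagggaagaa
Il17d: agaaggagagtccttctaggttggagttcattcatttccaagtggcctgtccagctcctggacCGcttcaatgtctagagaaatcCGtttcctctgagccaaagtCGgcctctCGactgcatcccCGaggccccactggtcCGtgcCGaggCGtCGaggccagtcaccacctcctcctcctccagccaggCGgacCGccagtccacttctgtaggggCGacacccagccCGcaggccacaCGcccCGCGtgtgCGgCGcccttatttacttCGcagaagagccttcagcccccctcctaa

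The Il17d promoter held 19 CpG dinucleotides, against 4 in Il12b, 7 in Il1rapl1 and 4 in Il17f. Over the 81 promoters of the 66 interleukin genes in the table the median was 4, against 7 over all 32851 promoters. Of 3 motifs searched on both strands, the TATA box TATAAA was found once in these promoters, in Il17f at 29 bases before the start. The STAT site TTCNNNGAA was found once, in Il17d at 20 bases after the start. The AP-1 site TGANTCA was found in none of them. Among the 81 promoters, 14 held TATAAA, 10 held TTCNNNGAA and 14 held TGANTCA, and the shares over all promoters were 13.6%, 8.30% and 7.81%. A match is a run of letters and no proof of binding.

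The first comparison asked which interleukin genes differed in H3K27ac between the arthritis paw and the control paw. The relative level of a gene is its mean number of reads per spot as a multiple of the mean gene, taken over the 11130 genes found in both paws. The log2 ratio was taken after 0.1 was added to both levels, and a gene was counted as higher or lower where its ratio lay more than 1 log2 unit above or below the median of all genes compared. That median was 0.11. By this rule 9.84% of all 11130 genes were higher in the arthritis paw and 9.04% were lower. Of the 25 receptor genes that both paws held, 8 were higher and 1 was lower, with a median log2 ratio of 0.47, and 18 lay above the median of all genes. Of the 22 ligand genes, 3 were higher and 3 were lower, with a median of 0.34, and 14 lay above the median of all genes. The difference between receptors and ligands was not tested.

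**Figure D1:**
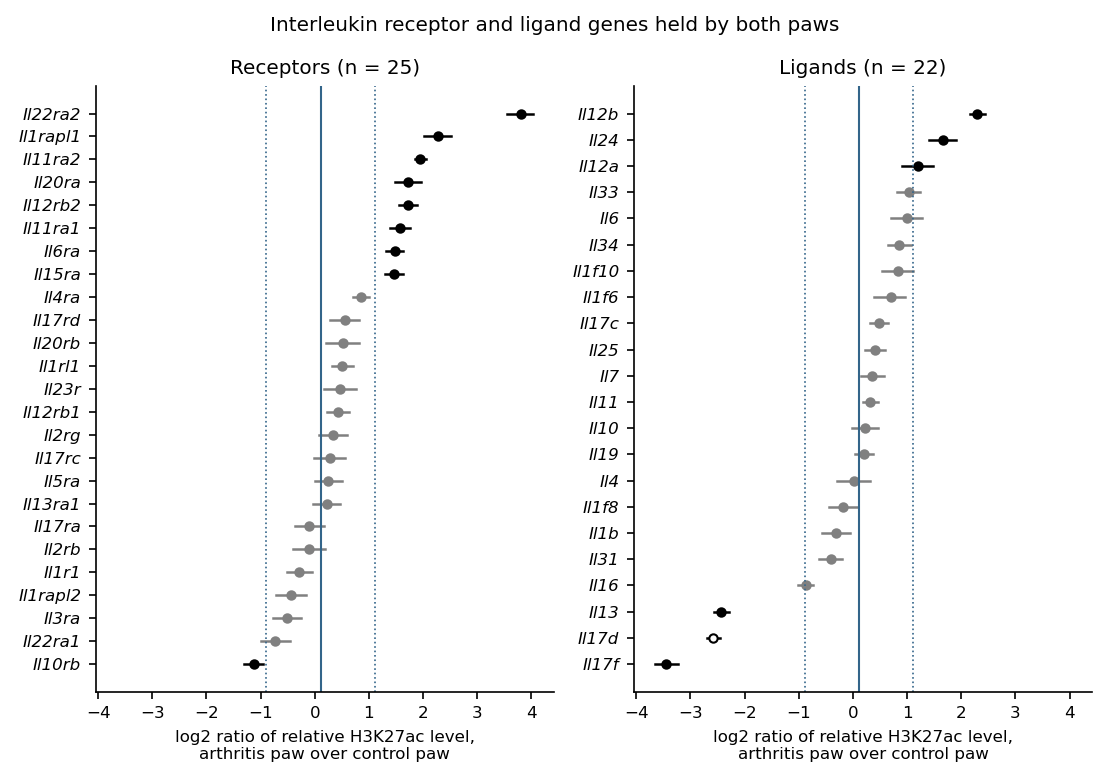
Log2 ratio of the relative H3K27ac level, arthritis paw over control paw, of the 25 receptor genes (left panel) and 22 ligand genes (right panel) held by both paws. Points are ratios, bars are 95% counting intervals, black marks a gene counted as higher or lower, and the open circle marks Il17d, whose control sum is a lower bound. The solid line is the median of all 11130 genes (0.11) and the dotted lines lie 1 log2 unit to either side. Il22ra2 (3.81) stands farthest to the right and Il17f (-3.44) farthest to the left.

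Receptors of the IL-6 and IL-12 family, which bind IL-6, IL-11, IL-12, IL-23 and related cytokines, had the highest median of the receptor families. Of the 6 genes held by both paws, 4 were higher in the arthritis paw, none was lower, and all 6 lay above the median of all genes, with a family median of 1.52. The share higher over all genes was 9.84%. Il6ra, which encodes the chain that binds IL-6, had 1399 reads in the arthritis paw and 399 in the control paw, at relative levels of 2.91 and 0.986, a log2 ratio of 1.47 (95% interval 1.32 to 1.62). Il12rb2, the signalling chain of the IL-12 receptor, had 1386 reads in the arthritis paw and 326 in the control paw (ratio 1.72, 1.56 to 1.88). Its partner Il12rb1, a chain that the IL-12 and IL-23 receptors share, had 421 and 254 (0.43, 0.22 to 0.63), and Il23r, the chain specific to IL-23, had 114 and 58 (0.47, 0.17 to 0.76), so neither was counted as higher. With a pseudocount of 1 in place of 0.1 the count for this family was 2 of 6 and its median 0.95, and 4.10% of all genes were higher. The count was 4 of 6 in each of the other 11 settings tried.

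The other higher genes of this family were the IL-11 receptor genes Il11ra2 and Il11ra1. Il11ra2 had 4769 reads in the arthritis paw and 1009 in the control paw, a log2 ratio of 1.95 (1.86 to 2.05). Il11ra1 had 999 and 256 (1.57, 1.40 to 1.75). The mouse Il11ra2 gene is a near-identical copy of Il11ra1, so reads may have been divided between them in counting and both values are uncertain. They may therefore not be separate genes in the counts of this family and of all receptors. Il11ra1 also shared reads with its neighbour Galt, a galactose metabolism gene: spot by spot, Galt matched 86.5% of its reads in the arthritis paw and 89.1% in the control paw. The Il11ra1 value therefore cannot be given to that gene alone. Levels of different genes are not divided by gene length unless stated, and the counting window of a gene is not given in the sources used here.

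In the IL-10 family, Il22ra2 had the largest ratio of all 47 genes. It encodes a soluble protein that binds IL-22 and keeps it from its receptor. Il22ra2 had 1089 reads in the arthritis paw, spread over 62.5% of spots, and 28 in the control paw, in 4.69% of spots, at relative levels of 2.27 and 0.0692. Its log2 ratio was 3.81 (3.55 to 4.03), and on 28 control reads its size depends on the setting. It was 2.44 from the deposited values, 1.61 with a pseudocount of 1, and at most 4.85 over all settings. Il20ra, a chain of the receptors for IL-19, IL-20 and IL-24, is the next gene along the chromosome and had 487 and 96 reads (1.72, 1.48 to 1.96). The Il22 and Il20 ligand genes were held by the control paw only. Il22ra1, a chain of the membrane receptor for IL-22, leaned the other way, with 98 reads in the arthritis paw and 164 in the control paw (-0.73, -1.0 to -0.46), and Il20rb had 77 and 33 (0.52, 0.20 to 0.82).

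Il10rb, the chain shared by the receptors for IL-10, IL-22 and the lambda interferons, was the only receptor gene counted as lower. It had 286 reads in the arthritis paw and 576 in the control paw, a log2 ratio of -1.13 (-1.31 to -0.95). Of its reads in the control paw, 52.4% fell in array columns 1, 5, 9, 13, 17 and 21, which held 12.9% of all reads. Without those columns in either paw the ratio was -0.30, within 1 log2 unit of the median of all genes, and it was -0.12 in even columns and -1.99 in odd columns. The lower value of Il10rb thus rested on those control columns.

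**Figure D2:**
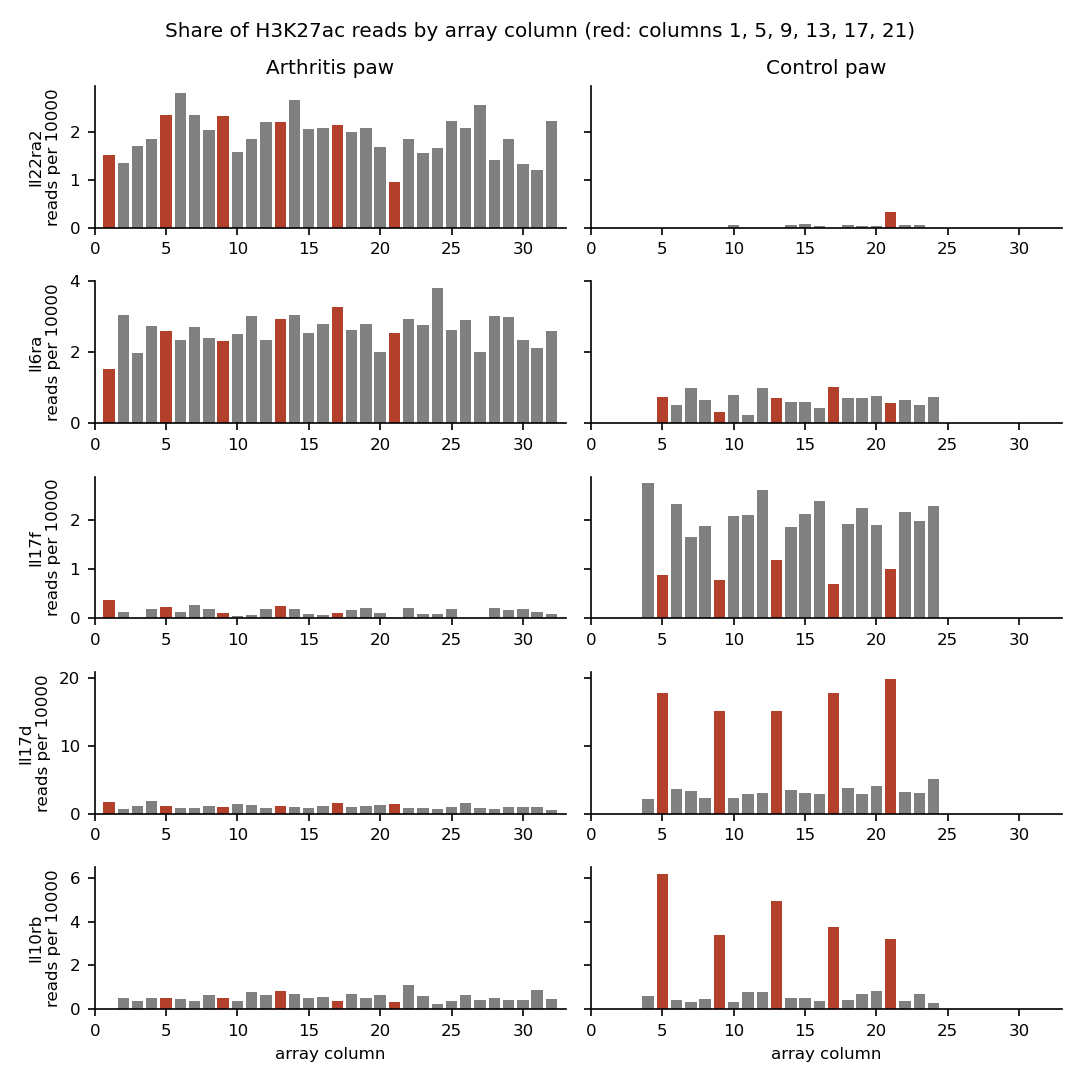
Reads per 10000 by array column for Il22ra2, Il6ra, Il17f, Il17d and Il10rb in the arthritis paw (left) and the control paw (right), with columns 1, 5, 9, 13, 17 and 21 in red; columns with under 20000 reads in all are not drawn. In the control paw the red columns hold 15.1 to 19.9 reads of Il17d per 10000 and the grey columns 2.12 to 5.19, while in the arthritis paw they hold 0.978 to 1.71 and 0.536 to 1.91.

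Among the remaining receptors, Il15ra and Il1rapl1 were higher in the arthritis paw. Il15ra, which binds IL-15 and presents it to neighbouring cells, had 1062 reads in the arthritis paw and 300 in the control paw (1.46, 1.29 to 1.63). Of the control reads 31.7% lay in the columns named for Il10rb, and the ratio was 1.77 without those columns. It was the only higher gene in a group of 7 receptor genes, namely Il15ra, Il4ra, Il2rg, Il2rb, Il13ra1, Il3ra and Il5ra. Il1rapl1, an IL-1 receptor relative known for its role at synapses, had 527 and 60 reads (2.27, 2.02 to 2.52). It was 1 of 4 IL-1 family receptor genes that was higher. The IL-1 receptor gene Il1r1 itself had 210 reads in the arthritis paw and 224 in the control paw (-0.28, -0.51 to -0.05). Of 3 IL-17 receptor genes none was counted in either direction, and Il17ra, the chain common to most of them, had 135 and 125 reads (-0.10, -0.37 to 0.17).

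The other receptor genes, among them shared and type 2 chains, differed less. Il4ra, used by both IL-4 and IL-13, had 993 reads in the arthritis paw and 446 in the control paw (0.85, 0.70 to 1.00), with 28.3% of the control reads in the same columns and a ratio of 1.11 without them. Il2rg, the common gamma chain itself, had 202 and 127 (0.33, 0.08 to 0.59), and the neighbouring gene Gm614 matched 96.0% and 89.0% of its reads, so those values belong to the pair. Il3ra, the IL-3 binding chain, had 146 and 193 (-0.51, -0.76 to -0.26), and Il1rapl2, the second IL-1 receptor relative, 105 and 134 (-0.44, -0.71 to -0.16). The receptor genes not yet described, Il1rl1, Il17rd, Il17rc, Il5ra, Il13ra1 and Il2rb, had ratios of -0.10 to 0.55, and none was counted in either direction.

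Among ligands, the genes higher in the arthritis paw were Il12b, Il24 and Il12a, of which Il12b and Il12a are 2 of 5 IL-6 and IL-12 family ligands held by both paws (family median 1.00). Il12b encodes the subunit that IL-12 and IL-23 share, and had 2700 reads in the arthritis paw and 431 in the control paw, at relative levels of 5.62 and 1.06 (ratio 2.30, 2.16 to 2.43). Il12a, which encodes the partner subunit of IL-12, had far fewer reads, with 178 and 42 (1.21, 0.92 to 1.48). Its call was lost in even columns, with a pseudocount of 1, and when the deposited values were divided by their spot factor. Il24, an IL-10 family cytokine that signals through the Il20ra chain, had 416 and 83 (1.66, 1.41 to 1.91).

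Il6, Il33, Il34, Il1b and Il10 were not counted in either direction. Il6 had 157 reads in the arthritis paw and 46 in the control paw, a log2 ratio of 1.00 (0.70 to 1.28), which is 0.89 above the median of all genes. Il33, the IL-1 family alarmin, had 489 and 181 (1.03, 0.82 to 1.24), and Il34, the second ligand of the macrophage receptor Csf1r, had 429 and 181 (0.86, 0.64 to 1.08). Il1b had 146 and 162 (-0.31, -0.56 to -0.05). Il10, which restrains inflammation, had 235 and 165 (0.22, -0.02 to 0.46). The intervals of Il6 and Il33 reach across the threshold of 1 unit above the median, so counting error alone does not place them on either side of it. The same holds for Il12a, which was counted as higher, and for Il1f10, which was not. It holds at the lower threshold for Il16 and Il22ra1, which were not counted.

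The ligand genes lower in the arthritis paw were Il17f, Il17d and Il13. Il17f, a cytokine of the Th17 class of T cells, had 80 reads in the arthritis paw, in 8.38% of spots, and 1134 in the control paw, in 73.1% of spots. Its relative levels were 0.167 and 2.80, a log2 ratio of -3.44 (-3.66 to -3.22). It was -1.46 from the deposited values. Per 10000 reads, the arthritis paw's columns held 0 to 0.380 reads of Il17f. In the control paw, columns 5, 9, 13, 17 and 21 held 0.693 to 1.18 and the other 16 columns 1.66 to 2.73, so every control column drawn was above every arthritis column.

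Il17d, a less studied member of the same family, had 579 reads in the arthritis paw and at least 3113 in the control paw, where part of the sum could not be recovered. Its log2 ratio was -2.58 (-2.70 to -2.46), and with the control sum a lower bound the difference may be larger. As with Il10rb, 44.0% of its control reads fell in the red columns of the plot by column, but without those columns the ratio was still -1.99. Il13, the type 2 cytokine, had 479 and 2350 reads (-2.43, -2.56 to -2.30), whereas its close neighbour Il4 had 82 and 68 (0.01, -0.29 to 0.32). Il16, a chemoattractant for CD4+ cells, had 704 and 1121 (-0.87, -1.0 to -0.74), just short of the threshold, with 32.6% of control reads in those columns, and -0.49 without them. In IL-17 ligands as a whole 2 of 4 were lower and none higher, since Il17c had 687 and 402 (0.49, 0.32 to 0.65) and Il25 474 and 291 (0.41, 0.22 to 0.60). The neighbour Efs matched 72.4% of the Il25 reads in the arthritis paw and 57.4% in the control paw, so the Il25 levels are not of that gene alone.

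The ligand genes not yet described were not counted in either direction. Il31 and Il11 were grouped with the IL-6 and IL-12 family ligands, and Il19 with those of the IL-10 family. None of the 5 IL-1 family ligands was counted in either direction, with a median of 0.70. Of these, the IL-36 genes Il1f6 and Il1f8 had 65 and 149 reads in the arthritis paw against 18 and 148 in the control paw, with ratios of 0.70 (0.39 to 0.97) and -0.18 (-0.44 to 0.08), and Il1f10 had 152 and 54 (0.84, 0.54 to 1.12). Il31, the itch cytokine, had 240 in the arthritis paw and 282 in the control paw (-0.41, -0.63 to -0.19). The stromal growth factor for lymphocytes Il7 had 332 and 209 (0.36, 0.14 to 0.58), Il11 had 1044 and 695 (0.32, 0.19 to 0.46), and Il19 had 572 and 413 (0.20, 0.04 to 0.37).

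Among 41 interleukin genes with at least 100 reads in the arthritis paw, the variance of reads over spots, as a multiple of that of random placement, was 0.918 to 1.11, with none above 1.5. Over all genes with at least 100 reads, its 95th percentile was 1.23 in the arthritis paw (10254 genes) and 1.63 in the control paw (12406 genes). The wider range in the control paw was thus not particular to interleukin genes. There the multiple was 0.887 to 6.39 over 46 interleukin genes, and 3 exceeded 1.5, namely Il17d (6.39), Il10rb (2.86) and Il16 (1.89). These also had the largest excess of control reads in columns 1, 5, 9, 13, 17 and 21, at 3.41, 4.06 and 2.52 times the share of all reads there. Il15ra (2.45), Il21 (2.27) and Il4ra (2.19) showed a like excess with a variance of 1.35 or less, and all genes ran at 0.537 to 2.15 between their 5th and 95th percentiles. Of the 15 genes counted as higher or lower, Il11ra2, Il12b, Il12rb2, Il22ra2, Il13, Il17d and Il17f kept the call in every alternative setting that gave a value. Il11ra1, Il6ra, Il15ra, Il1rapl1, Il20ra and Il24 lost it only with a pseudocount of 1.

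Of 35 genes of interleukin signalling, a list of JAK, STAT, SOCS and IRAK genes, adaptors and some related cytokines and receptors, both paws held 21, of which 2 were higher and 2 lower in the arthritis paw, with a median of 0.41. These shares are close to those of all genes. The highest were Osm, an IL-6 family cytokine, with 308 reads in the arthritis paw and 58 in the control paw (1.61, 1.34 to 1.87), Tslp, an epithelial cytokine, with 841 and 241 (1.41, 1.23 to 1.60), and Cish, a STAT-induced inhibitor, with 345 and 116 (1.08, 0.84 to 1.32), which was not counted. The lowest were Irak2, a kinase of IL-1 signalling, with 209 and 2315 (-3.44, -3.62 to -3.27), Stat3, which acts downstream of the IL-6 and IL-10 receptors, with 1204 and 2436 (-1.23, -1.33 to -1.13), and Jak3, the kinase bound to the common gamma chain, with 259 and 414 (-0.81, -1.01 to -0.61), which was not counted.

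Markers of cell types that a paw section can hold were set beside these values. The summed relative level of the 5 epidermis markers held by both paws was 10.0 in the arthritis paw and 4.97 in the control paw, with 2 of 5 higher. That of the 8 neutrophil markers was 3.67 and 7.67, with 1 lower, and that of the 6 B cell markers 3.39 and 9.78, with 2 lower. The 7 T and NK cell markers, which include Il2rb, summed to 10.8 and 7.59 with 1 higher, and the 5 macrophage markers to 2.71 and 2.48 with none in either direction. The 6 skeletal muscle markers summed to 7.87 and 4.27 with 2 higher, and the 9 cartilage and bone markers to 10.03 and 10.12 with 1 lower. The embryo markers, set beside them, summed to 22.5 and 11.9 over 11 genes, with 3 higher and 2 lower. Over all genes 9.84% were higher and 9.04% lower. The sums need not stand for the typical marker. Median log2 ratios were 0.85 for epidermis, 0.50 for muscle, 0.26 for macrophages and 0.10 for T and NK cells. They were -0.14 for cartilage and bone, -0.19 for B cells and -0.52 for neutrophils, against 0.11 for all genes. None of these markers was at 0 in either paw, and their part in the interleukin ratios was not tested.

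The control paw alone held 36 interleukin genes, or 43.4% of the 83, against 42.6% of all 19378 genes, so the arthritis list lacked interleukin genes about as often as it lacked genes at large. They were 17 of 39 ligands, 16 of 41 receptors and the 3 others. They had a median of 76.5 reads there, against 181 for the interleukin genes held by both paws. The medians over all genes were 77 and 211. The brain section, whose list held only 11345 genes, lacked 26 of the 36 as well. The matching share over all genes was not computed, so that count is no result about interleukin genes. The absence of a gene from the arthritis list gives no level for it there.

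Among the receptors held by the control paw alone, Il21r stood apart with 1474 reads, at the 97.5th percentile of all genes of that paw, and it lies beside Il4ra. The decoy receptor Il1r2 had 291 and Il31ra, the IL-31 receptor, 280. The others had 159 reads or fewer. These were Il18r1 (159), Il10ra (128), Il27ra (110), Il13ra2 (101), Il2ra (97), Il6st (78), Il1rl2 (77), Il17re (76), Il7r (71), Il1rap (67), Il9r (61), Il18rap (60) and Il17rb (52). Il6st, the signalling chain of the whole IL-6 family, and Il1rap, the partner chain of Il1r1, are thus among the genes with no arthritis value, and Rln3 matched 90.9% of the Il27ra reads.

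Among the ligands held by the control paw alone, the inflammasome product Il18 had 218 reads, Il15 had 170 and Il21 had 140. The IL-1 genes Il1a and Il1rn, of which Il1rn encodes the receptor antagonist, had 109 and 85. Il17a, the founding member of the IL-17 family, had 80 reads in the control paw, where its neighbour Il17f had 1134. The rest had Il3 83, Il27 71, Il17b 63, Il2 57, Il5 52, Il1f5 50, Il1f9 47, Il23a 46, Il22 42, Il20 38 and Il9 33 reads. Of the 3 other genes, Il4i1b had 174 reads, of which its neighbour Nup62 matched 81.0%, Il4i1 had 71, and Il18bp, the antagonist of IL-18, had 45.

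Within sections, levels of different genes were compared per kilobase of gene length as RefSeq gives it. The IL-17 family gene Il17c was among the 5 highest interleukin genes per kilobase in each of the 6 sections. Reads followed gene length only weakly across genes (Spearman's rho of 0.145 to 0.193), so the division lifts short genes such as Il17c, Il31, Il25 and Il13. In the arthritis paw Il11ra2 led with 455 reads per kilobase, followed by Il17c with 424, Il12b with 185, Il25 with 151 and Il13 with 142. In the control paw Il13 led with 695, followed by Il17c with 248, Il17d with 170, Il17f with 140 and Il31 with 114. In the brain Il17c had 125 reads per kilobase, Il13 82.5, Il25 75.1, Il11ra2 68.3 and Il31 52.2. Per gene rather than per kilobase, and as a multiple of the mean over all genes of the same section, the 5 highest relative levels in the arthritis paw were those of Il11ra2 (9.93), Il12b (5.62), Il6ra (2.91), Il12rb2 (2.89) and Il22ra2 (2.27). On this scale, over all 19378 genes of the control paw, they were those of Il17d (10.1), Il13 (7.61), Il21r (4.78), Il17f (3.67) and Il16 (3.63).

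**Figure D3:**
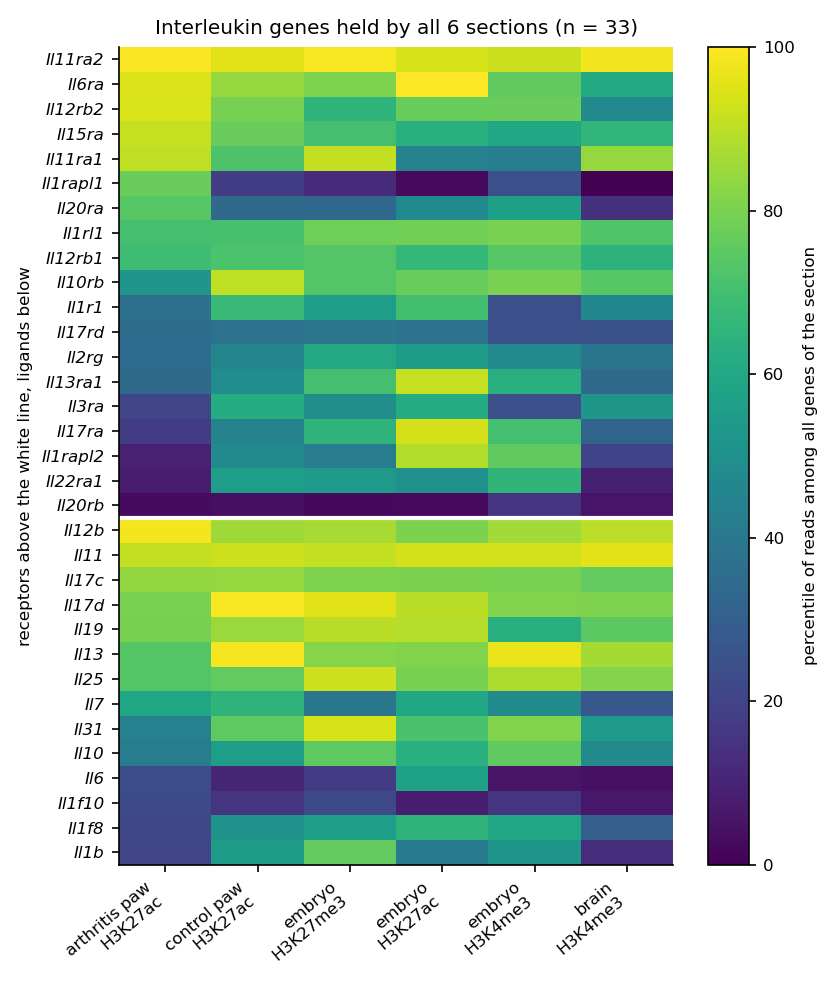
Percentile of reads among all genes of the same section, by colour, for the 33 interleukin genes held by all 6 sections, with 19 receptors above the white line and 14 ligands below. Reads are not divided by gene length. Il11ra2 is above the 90th percentile in every section, while Il20rb is at the 15.5th percentile or lower in each.

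The embryo sections asked how interleukin genes differed among the 3 marks, each measured in its own section of a whole embryo. A difference between marks cannot be told apart from one between sections. H3K27me3 was set against H3K27ac for 82 interleukin genes. By the same rule 13 were higher in H3K27me3 and 10 were lower, against 12.3% and 11.6% of all 18653 genes, and the median log2 ratio was -0.07 against -0.12 for all genes. Among the 36 with at least 20 reads in at least 1 of the 2 sections, 10 were higher and 6 lower, and by the same filter 1786 were higher and 1599 lower of 9010 genes in all. Il2, the T cell growth factor, had 112 reads in H3K27me3 and 5 in H3K27ac (3.42, 2.49 to 4.26). Its high-affinity receptor chain Il2ra had 44 and 7 (1.82, 0.90 to 2.71). The IL-11 receptor genes again stood high, with 78 and 10 reads for Il11ra1 (2.21, 1.41 to 3.02) and 422 and 79 for Il11ra2 (1.93, 1.59 to 2.28), and Ccl27a, a chemokine gene beside Il11ra1, matched 84.6% of the Il11ra1 reads in H3K27me3.

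**Figure D4:**
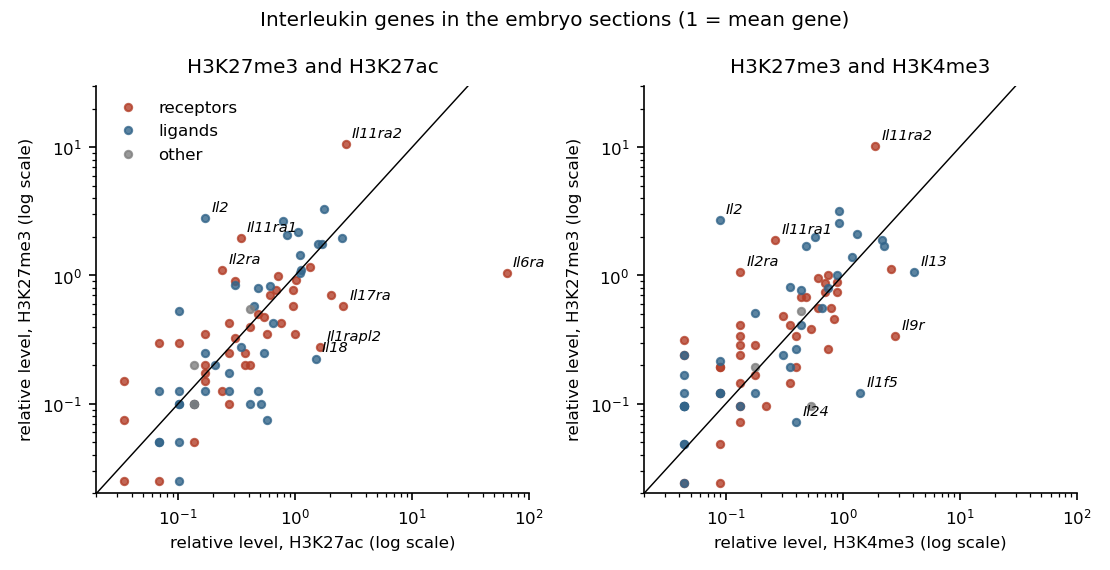
Relative level of interleukin genes in embryo H3K27me3 (vertical) against H3K27ac (left panel, horizontal) and H3K4me3 (right panel, horizontal), on log scales where 1 is the mean gene; red points are receptors, blue ligands and grey the others. The line marks equal levels. Il2, Il2ra, Il11ra1 and Il11ra2 lie above the line in both panels. Il6ra lies far to the right in H3K27ac alone, at 64.2, from a sum that is a lower bound.

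At the other end stood Il6ra, with 42 reads in H3K27me3 and at least 1881 in H3K27ac, a log2 ratio of -5.81 (-6.24 to -5.40). Part of the Il6ra sum in H3K27ac could not be recovered, so the difference may be larger, which the interval does not cover. In H3K27ac the recovered Il6ra reads lay in 99.6% of the spots. They made up 1881 of the 3258 recovered reads of all interleukin genes there. The next lowest were Il18, with 9 reads in H3K27me3 and 44 in H3K27ac (-2.30, -3.09 to -1.47), Il1rapl2, with 11 and 48 (-2.21, -2.98 to -1.42), and Il17ra, with 23 and 75 (-1.98, -2.61 to -1.36). These were counted from few reads, except for Il6ra.

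H3K27me3 was also set against H3K4me3, in 81 interleukin genes. The H3K27me3 section is the same as in the comparison before, so the results share its reads. Of the 81, 13 were higher in H3K27me3 and 7 lower, against 13.3% and 11.1% of all 17837 genes, with a median of 0.17 against 0.08. The 4 highest were Il2 with 112 reads in H3K27me3 and 2 in H3K4me3 (3.89, 2.70 to 4.68), Il11ra1 with 78 and 6 (2.44, 1.48 to 3.38), Il11ra2 with 422 and 43 (2.36, 1.92 to 2.82) and Il2ra with 44 and 3 (2.32, 1.15 to 3.25). The lowest were Il1f5, the IL-36 antagonist gene, with 5 and 32 (-2.78, -3.57 to -1.83), Il9r with 14 and 63 (-2.72, -3.44 to -2.01), Il13 with 44 and 92 (-1.85, -2.36 to -1.35) and Il4ra with 47 and 58 (-1.11, -1.66 to -0.57).

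H3K27ac against H3K4me3 completed the set, and shares both sections with the comparisons above. Of 81 interleukin genes 14 were higher in H3K27ac and 8 lower, against 12.9% and 12.3% of all 17762 genes, with a median of 0.19 against 0.20. Il6ra, whose H3K27ac sum is a lower bound, led with at least 1881 reads in H3K27ac and 17 in H3K4me3 (6.18, 5.56 to 6.85). It was followed by Il18 with 44 and 2 (3.03, 1.79 to 3.85), Il17ra with 75 and 14 (1.83, 1.08 to 2.62) and Il1r1 with 22 and 3 (1.82, 0.58 to 2.81). The lowest were Il9r with 5 and 63 (-3.45, -4.30 to -2.49), Il1f5 with 5 and 32 (-2.52, -3.42 to -1.49), Il13 with 33 and 92 (-1.82, -2.39 to -1.26) and Il4ra with 39 and 58 (-0.95, -1.53 to -0.37). In all 3 mark comparisons the shares counted as higher and lower lay near those of all genes, and the sign of the interleukin median relative to all genes changed with the setting.

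In the embryo the highest relative levels per gene in H3K27me3 were those of Il11ra2 (10.7), Il17d (3.38), Il2 (2.85), Il31 (2.69) and Il25 (2.24). In H3K27ac Il6ra (64.9, from a sum that is a lower bound) was followed by Il11ra2 (2.73), Il17ra (2.59), Il11 (2.55) and Il13ra1 (2.04), a chain of the receptor for IL-13. In H3K4me3 they were those of Il13 (4.12), Il9r (2.82), Il4ra (2.60), Il16 (2.28) and Il11 (2.19). Per kilobase, Il31 and Il11ra2 led in H3K27me3 with 42.9 and 40.2 reads, Il6ra in H3K27ac with at least 42.9, and Il13 in H3K4me3 with 27.2.

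The last comparison set H3K4me3 in the adult brain against that in the embryo. It uses the same embryo H3K4me3 section, and covers 43 interleukin genes. The median log2 ratio of all 11127 genes was 0.66, and calls were made relative to it. Of the 43 genes 3 were higher in the brain and 4 lower, against 7.23% and 11.7% of all genes, with a median of 0.51. Those higher were Il11ra1, with 256 reads in the brain and 6 in the embryo (2.25, 1.38 to 3.09), Il3ra with 126 and 3 (1.93, 0.90 to 2.72) and Il1r1 with 113 and 3 (1.79, 0.76 to 2.58). The intervals of these 3 genes reach below the threshold of 1 log2 unit above the median of all genes. Next came Il17re, the receptor for Il17c, with 62 and 2 (1.36, 0.24 to 2.05), which was not counted. In the brain Galt matched 91.4% of the Il11ra1 reads, so that value too belongs to both genes.

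The genes lower in the brain were Il1f5, with 43 reads in the brain and 32 in the embryo (-1.90, -2.46 to -1.31), Il13 with 279 and 92 (-1.07, -1.40 to -0.72), Il1rapl2 with 66 and 17 (-0.63, -1.30 to 0.08) and Il22ra1 with 48 and 12 (-0.55, -1.31 to 0.24). The intervals of Il1rapl2 and Il22ra1 include 0 but lie below the median of all genes (0.66). They reach across the threshold of 1 log2 unit below that median, so counting error alone does not place these 2 genes on either side of it. Il22ra1 lay above the median of all genes in odd columns and when the deposited values were divided by their spot factor. The highest relative levels per gene in the brain were those of Il11ra2 (3.99), Il11 (2.69), Il12b (1.83), Il13 (1.55) and Il11ra1 (1.43). Il1rapl1, the synaptic receptor relative, had 20 reads in the brain, the fewest of the 43, at a relative level of 0.111.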

How the data were processed

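The authors deposited, for each of the 6 sections, a table of quantile-normalised signal per gene and spot. The tools Bowtie2, featureCounts and MACS2 and the builds hg19 and mm9 are named, per the submitters' processing notes, without roles or versions. Within a spot, genes with equal read counts were ranked in 1 fixed gene order, that of the control paw, and took successive deposited values. The next count was read where the place in that order fell back. The recovered reads made up 92.9% to 95.4% of each table's list total. Il17d in the control paw and Il6ra in embryo H3K27ac are lower bounds.

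A gene's mean reads per spot were scaled to the mean gene among those present in both sections. The log2 ratio was taken after adding 0.1, and a call needed more than 1 log2 unit from the median of all genes compared. Intervals are exact conditional binomial (Clopper-Pearson) at 95%. With 1 section per group no test was made. Promoters were taken from RefSeq (GRCm38.p6), which listed 66 of the 83 genes. No other RefSeq coordinates are printed, since the mouse build named in those notes is another.

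The named genes were, in the paws, the 10 highest and 10 lowest ratios among ligands and among receptors, some fixed cytokine genes, and every gene held by the control paw alone. In the embryo and brain they were the 4 highest and 4 lowest ratios among genes with at least 20 reads in a section, and the 5 highest levels per section. Although the rule reads symbols alone, this gene group and the lists were chosen with earlier results of these data known. In all 12 alternative settings were tried, of which 1, the deposited values divided by a spot factor, was added after seeing the data. The steps were tested on simulated data. Python 3.11.15, numpy 2.4.6, pandas 2.3.3, scipy 1.17.1, numba 0.67.0 and matplotlib 3.10.9 were used.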

Additional observations from a re-analysis of the deposited data

How the results depend on the processing

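No paired analysis was possible because each group had 1 section. Under 12 alternative settings, the median of the paw ligands relative to all genes (0.23) ranged over 0.10 to 0.28, and that of the paw receptors (0.36) over 0.07 to 0.44. With a pseudocount of 1 the receptor median was 0.075, 3 of 25 receptors and 1 of 22 ligands were counted as higher, and 0 receptors as lower. In that setting 4.10% of all genes were higher and 3.98% lower. With a pseudocount of 0.01, 7 ligands were higher and 2 receptors lower, against 12.5% and 11.0% of all genes. With a trimmed mean 5 ligands were higher and 2 receptors lower, against 12.4% and 11.0%. In even columns, and without columns 1, 5, 9, 13, 17 and 21, 0 receptors were lower, against 9.19% and 8.93% of all genes. With the deposited values 5 ligands were lower, against 10.3% of all genes, and the signalling median relative to all genes was 0.016, against 0.31. The embryo and brain medians relative to all genes took both signs (-0.03 to 0.18, -0.19 to 0.30, -0.22 to 0.17 and -0.38 to 0.43). Relative to all genes, the sign turned for Il17d in H3K27me3 over H3K4me3 (-0.0064 with deposited values), for Il1a in the same comparison (-0.94 with deposited values and -0.58 with them divided by spot factor), and for Il22ra1 in brain over embryo (0.78 with values divided by spot factor and 0.032 in odd columns). The causes were not tested. Median read numbers of 8 to 12 per gene limit the embryo values.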
